A study of Mus musculus with 71 samples.

Results

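Brain RNA was compared between mice kept awake over the first 6 h of the dark phase and mice left undisturbed, all killed at ZT18. ZT, zeitgeber time, counts hours from lights on; lights went off at ZT12. Every array whose labels gave a sacrifice at ZT18 was taken, which were 17 of the 71 arrays of the series: 9 of control mice and 8 of sleep-deprived mice. The animals were male mice of 12 to 13 weeks of 3 inbred strains (C57BL/6J, DBA/2J and AKR/J), with no transgene or drug named in any group. Control mice stayed in the home cage, and sleep-deprived mice were prevented from sleeping from ZT12 until they were killed at ZT18. Each array carried whole-brain RNA pooled from 3 mice of a single group, so a value is an average over 3 brains and the p-values measure the spread between pools. Of the 6 groups, 5 held 3 arrays each and the sleep-deprived AKR/J group held 2. The same contrast at ZT0, ZT6 and ZT12, with 18 arrays at each time, served to ask whether the response at ZT18 differed in size.

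Mice are mostly active in the early dark phase, so control mice at ZT18 have themselves been awake for much of the preceding hours, whereas control mice killed in the light phase have mostly slept. Neuronal activity switches on immediate early genes, which encode transcription factors such as Fos and Egr proteins and synaptic proteins such as Arc and Homer1. Prolonged wakefulness is known to raise these genes in the brain together with chaperones, the proteins that fold other proteins in the cytosol and in the endoplasmic reticulum.

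Values are log2 signals per probe set, the group of short probes on the array that reads a transcript, and 1 unit is a 2-fold change. The 17 arrays had medians between 5.65 and 5.69, and any pair of them correlated at 0.989 or more over all probe sets. Of 10 neuronal markers measured, all 10 lay in the top 20% of levels on these arrays, as did 9 of 10 astrocyte markers and 8 of 8 oligodendrocyte markers. Fewer microglial (4 of 9) and endothelial (3 of 8) markers did. Among brain regions, 8 of 9 cerebellar, 4 of 5 striatal, 1 of 6 hypothalamic and 0 of 6 olfactory bulb markers did. Growth hormone, a pituitary gene that shows how much of that gland came along with a brain, ranged from 8.88 to 13.4 log2 over control pools and from 5.70 to 13.3 over sleep-deprived pools. No gene of the 14 marker lists for cell types and regions was called at ZT18, beside 0.0777% of all probe sets. At that share lists this short would rarely hold a call, so the absence of calls does not show equal cell composition. In bulk RNA, fewer cells of a type and less RNA per cell cannot be told apart.

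After sleep loss in the early night, brain RNA of 10 genes of the heat shock and endoplasmic reticulum lists and of some activity-induced genes, Homer1, Egr2, Egr3 and Fosl2, was higher, and that of a small mixed set was lower. The mean difference over the 3 strains was tested with limma at a Benjamini-Hochberg adjusted p under 0.05 over 45037 probe sets. It called 35 probe sets, 27 higher and 8 lower, from 32 genes; that is 0.0777% of all probe sets tested, 0.06% higher and 0.0178% lower. The sizes were modest: the median was 0.26 log2 and the largest, that of Egr2, was 0.60. Of the 35 differences, 34 had the same sign in each strain, against 24.7% of all probe sets. In 13 probe sets the sleep-deprived arrays all lay above the controls within each strain (0.0933% of all probe sets did), and in 4 they all lay below (0.0711%). The 35 were chosen on the mean of these same differences. Agreement between strains is thus partly built in, and these shares are no separate support for the calls.

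**Figure D1:**
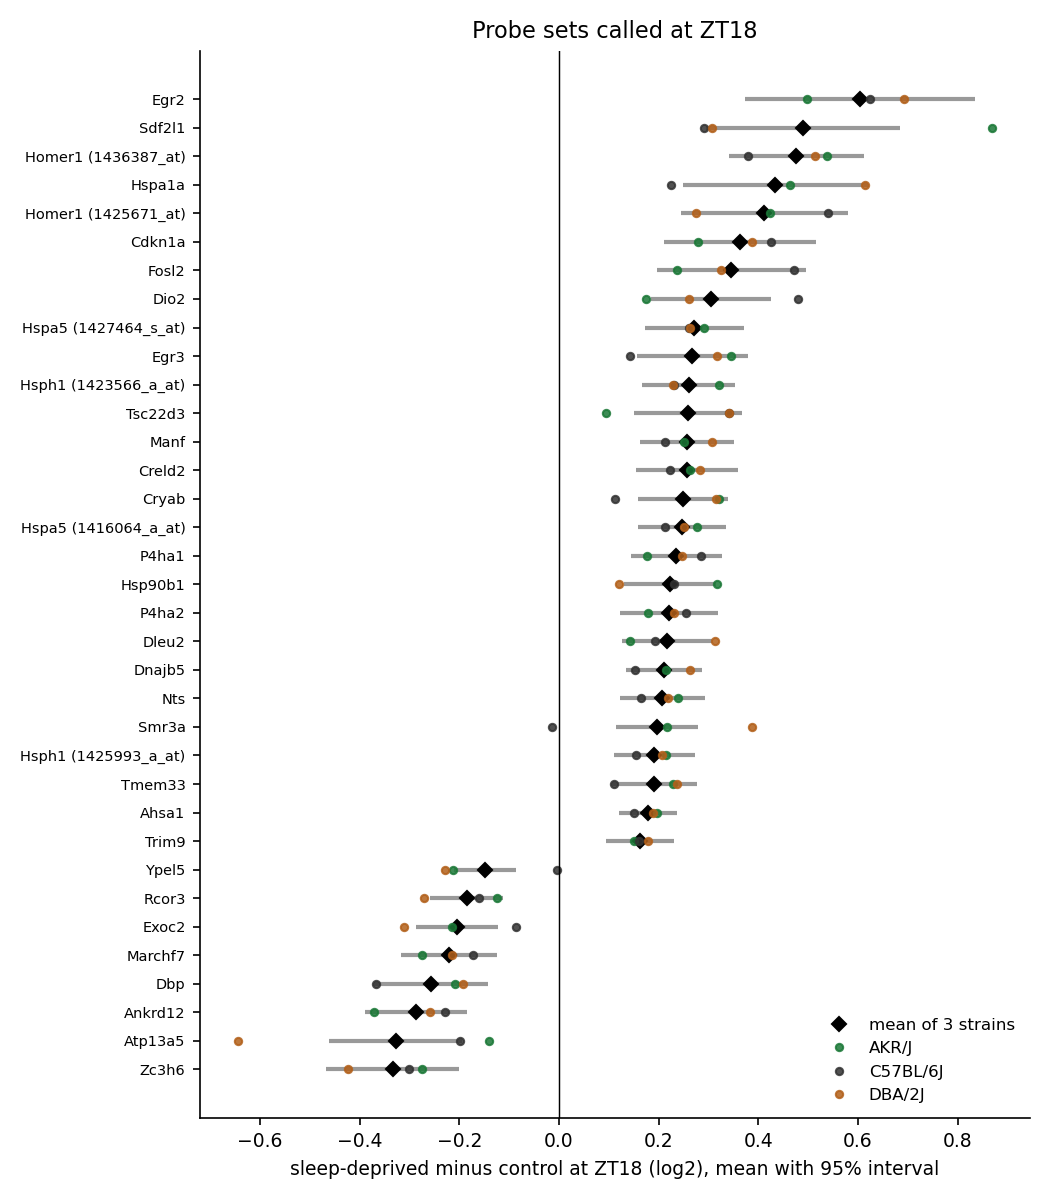
Difference between sleep-deprived and control mice at ZT18 (log2, horizontal axis) for the 35 probe sets called, each on its own line; black diamonds are the mean of 3 strains with the 95% interval of the limma fit in grey, and coloured points are the strains. The 27 probe sets called higher include Smr3a, where the C57BL/6J point lies at -0.01, and the 8 called lower range from -0.15 for Ypel5 to -0.33 for Zc3h6.

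How many probe sets passed rested on the fit and on single arrays. With each group mean fitted on the 17 arrays alone, 10 were called and 6 of the 35 stayed called. These were Homer1 (both probe sets), Egr2, Egr3 and Hsph1 (1423566_a_at), all higher, and Dbp, lower. No gene of the endoplasmic reticulum list stayed called in that fit. Its limma adjusted p was 0.067 for Hspa5 (1416064_a_at), Manf, Sdf2l1 and Hsp90b1, and 0.144 for Creld2. With the spread estimated from the 17 arrays alone and strain as an additive block, 16 were called and 12 of the 35 stayed called: 10 higher, for Homer1 (both probe sets), Egr2, Egr3, Fosl2, Hspa5 (both probe sets), Manf, Hsph1 and Dnajb5, and 2 lower, for Dbp and Zc3h6. The count fell to 9 without AKR/J sleep-deprived replicate 1, to 13 without AKR/J sleep-deprived replicate 2, to 15 without C57BL/6J sleep-deprived replicate 1 and to 23 without DBA/2J sleep-deprived replicate 3. Among control arrays, it fell to 20 without AKR/J replicate 2, to 18 without C57BL/6J replicate 1, to 17 without DBA/2J replicate 2 and to 21 without DBA/2J replicate 3. Homer1 (1436387_at), Ahsa1, Dnajb5 and Manf were called with any single ZT18 array left out. In most of these fits Fosl2, Egr3, Hspa1a, Hsph1 (1425993_a_at), Hsp90b1, Cdkn1a, Tsc22d3, P4ha2, Tmem33, Trim9, Ypel5, Marchf7 and Dbp were not called. No difference among the 35 changed sign in these fits.

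Short stretches upstream of called genes that rose are shown to let a reader see which known control elements lie there. Capitals mark the matches of 1 element per gene, and other elements were not marked. All positions come from RefSeq on GRCm38.p6, and a match is a description of the sequence only. Where a gene had several starts, such as Homer1 with 2 and Egr2 with 5, a start with the most matches is shown. In the shares below, a gene counts if any of its starts held the element. The 250 bases before the gene start were searched on both strands for the endoplasmic reticulum stress response element (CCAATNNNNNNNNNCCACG), the heat shock element core (GAANNTTC), the cAMP response element core (TGACG), the E-box (CACGTG) and the serum response element. The table held 29 of the 32 genes called, among them 21 that rose; Cryab, Egr3 and Manf were not matched.
Hspa5, chr2:34772013-34772055, plus strand: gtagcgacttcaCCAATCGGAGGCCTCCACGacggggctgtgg
Creld2, chr15:88819508-88819550, plus strand: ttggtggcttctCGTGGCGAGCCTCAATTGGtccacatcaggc
Hsp90b1, chr10:86705521-86705668, minus strand: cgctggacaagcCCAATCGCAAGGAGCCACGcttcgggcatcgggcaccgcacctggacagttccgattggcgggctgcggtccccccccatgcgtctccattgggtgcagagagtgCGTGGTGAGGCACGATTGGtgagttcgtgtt
Homer1, chr13:93303689-93303756, plus strand: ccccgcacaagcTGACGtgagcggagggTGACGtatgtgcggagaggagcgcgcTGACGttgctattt
Egr2, chr10:67537482-67537515, plus strand: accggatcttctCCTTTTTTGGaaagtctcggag
Hspa1a, chr17:34972241-34972272, minus strand: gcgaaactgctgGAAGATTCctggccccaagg
The 3 genes with the endoplasmic reticulum stress response element, Hspa5, Creld2 and Hsp90b1, are all chaperones or related proteins of that compartment; the element lay upstream of 35 of 27025 genes, 0.13%. The cAMP response element core was found upstream of 9 of the 21 genes that rose and of 19.8% of all genes. Homer1 held 3 copies at 1 of its 2 starts, the nearest beginning 14 bases before that start. The heat shock element core was found in 4 of the 21 (Hspa1a, Homer1, Fosl2 and Tmem33) and in 7.73% of all genes; the windows of the heat shock genes Hsph1, Ahsa1 and Dnajb5 held no match, and that of Sdf2l1 held no endoplasmic reticulum stress response element. No match says only that these letters are not in the window searched. The E-box was found in 3 of the 21 and in 6.86% of all genes, and the serum response element in 1, Egr2, and in 1.62%.

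Homer1, whose activity-induced short protein loosens the scaffold of excitatory synapses, gave the smallest p at ZT18. In AKR/J, probe set 1436387_at read 9.70, 9.58 and 9.85 log2 in controls and 10.28 and 10.21 after sleep deprivation. In C57BL/6J it read 9.51, 9.24 and 9.50 in controls and 9.96, 9.84 and 9.58 after sleep deprivation, and in DBA/2J 9.82, 9.66 and 9.58 against 10.35, 10.09 and 10.15. Sleep-deprived arrays lay above the controls in each strain, narrowly so in C57BL/6J, where replicate 3 was close to the highest control. The mean difference was 0.48 ± 0.07 log2 (SE; 1.39-fold; limma adjusted p = 0.000146), with 0.54 in AKR/J, 0.38 in C57BL/6J and 0.51 in DBA/2J. A second Homer1 probe set, 1425671_at, rose by 0.41 ± 0.08 (adjusted p = 0.0186). The other 4 probe sets of the gene differed by -0.08 to 0.04 and were not called; which transcript form each reads is not given in the sources used here.

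Egr2, a zinc finger transcription factor of the immediate early class, showed the largest mean rise. AKR/J controls read 5.0, 5.41 and 5.11 log2 and sleep-deprived AKR/J mice 5.79 and 5.54. The C57BL/6J values were 4.53, 4.56 and 4.72 in controls against 5.55, 5.19 and 4.93, and the DBA/2J values 5.11, 5.23 and 5.51 against 6.31, 5.91 and 5.71. No control array reached a sleep-deprived array of its strain. The rise was 0.60 ± 0.12 log2 (1.52-fold; limma adjusted p = 0.0118), and the gene's second probe set, 1427683_at, differed by 0.48 (adjusted p = 0.0646). Egr3, a relative of Egr2, rose by 0.27 ± 0.06 (adjusted p = 0.0217), and Fosl2, a partner of Jun proteins in the AP-1 factor, by 0.35 ± 0.07 (adjusted p = 0.0337).

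Other genes of this class were not called at ZT18. Arc, which takes part in the removal of glutamate receptors from synapses, read 8.56, 8.64 and 8.57 log2 in AKR/J controls against 8.87 and 8.84 after sleep deprivation. Its C57BL/6J values were 8.21, 8.49 and 7.96 against 8.78, 8.87 and 8.44, and its DBA/2J values 8.65, 8.87 and 8.76 against 9.42, 8.94 and 8.78. The groups of Arc did not overlap in AKR/J but did in C57BL/6J and DBA/2J, and the mean difference was 0.34 ± 0.11 (limma adjusted p = 0.432). Fos differed by 0.21 ± 0.10 (limma adjusted p = 0.847) and the growth factor gene Bdnf by 0.23 ± 0.06 (adjusted p = 0.15). Ptgs2, which encodes an inducible prostaglandin synthase, differed by 0.30 ± 0.10 (adjusted p = 0.531). The synaptic pentraxin Nptx2 differed by 0.07 ± 0.08 on 1449960_at, at a low mean level of 4.05 (adjusted p = 0.991). Its other probe set, 1420720_at, at a mean level of 6.62, differed by 0.11 ± 0.11 (adjusted p = 0.991).

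By list, with each gene read on its probe set of highest mean level, 2 of 30 immediate early transcription factors were called higher (Egr3 and Fosl2) and 0 lower, beside 0.06% and 0.0178% of all probe sets. The difference was positive in 26 of the 30, and in 20 of them in each of the 3 strains; over all probe sets 47.5% were positive and 11.3% positive in each strain. The median was 0.11 log2, against 0.00 over all probe sets. Among 29 activity-regulated synaptic and signalling genes 0 were called, 26 were positive and the median was 0.08. All 12 MAP kinase phosphatases and feedback inhibitors, which damp the signal that switches on immediate early genes, were positive with a median of 0.11, and 0 were called; Dusp4 (0.27, limma adjusted p = 0.239) and Dusp6 (0.18, adjusted p = 0.256) were nearest.

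**Figure D2:**
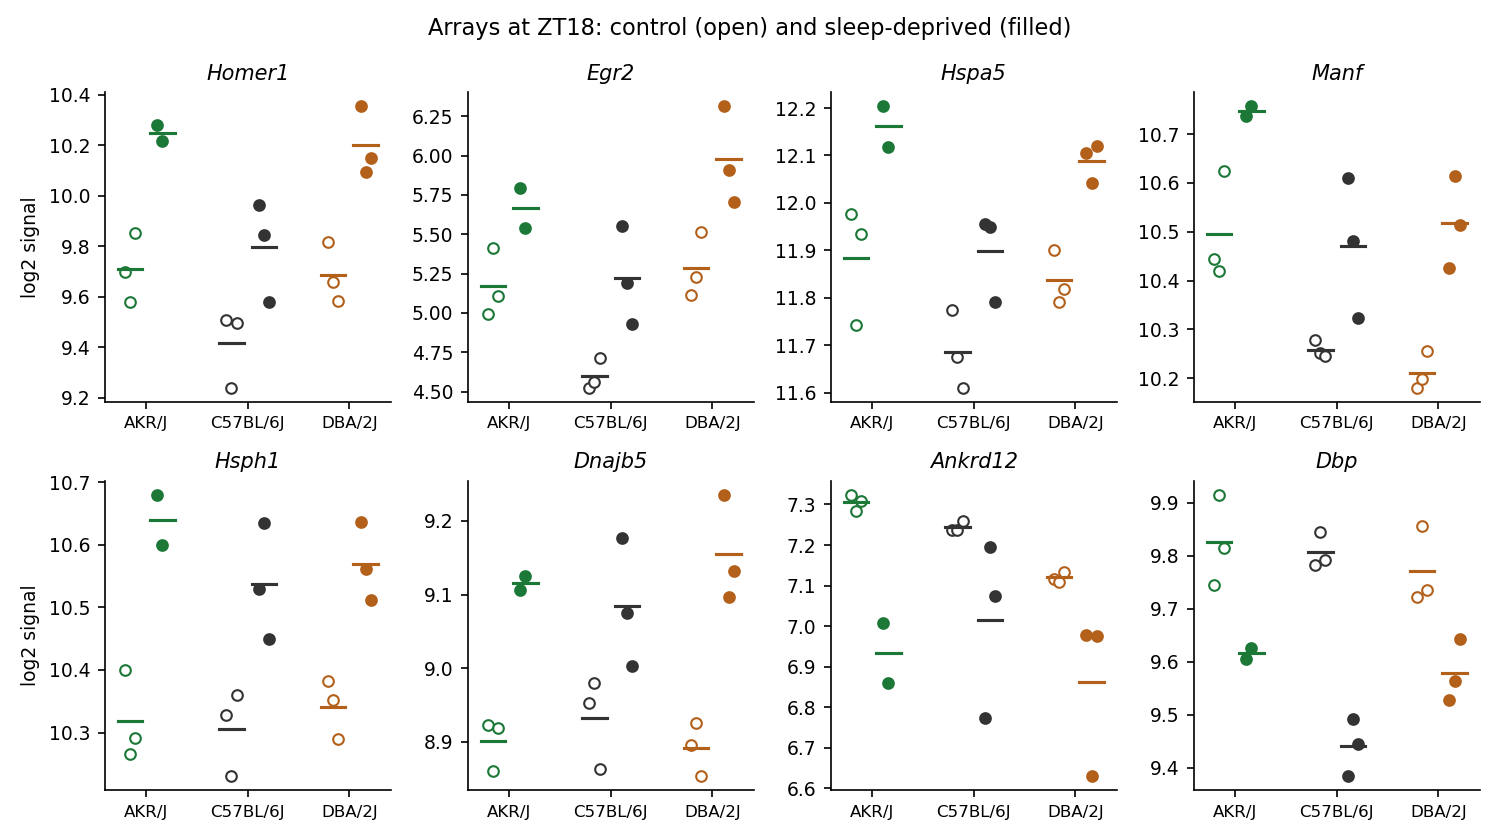
Log2 signal (vertical axis) of 8 genes on each ZT18 array by strain, control arrays as open and sleep-deprived arrays as filled circles with bars at the group means. Within every strain the sleep-deprived arrays lie above the controls for Homer1, Egr2, Hspa5, Manf, Hsph1 and Dnajb5 and below them for Ankrd12 and Dbp.

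Chaperones of the endoplasmic reticulum rose in part, with 5 of 31 measured list members called higher (0.06% of all probe sets were) and 0 lower. Hspa5, the BiP protein that holds unfolded proteins in this compartment, read 11.98, 11.74 and 11.93 log2 in AKR/J controls and 12.20 and 12.12 after sleep deprivation. In C57BL/6J the values were 11.77, 11.67 and 11.61 against 11.95, 11.95 and 11.79, and in DBA/2J 11.90, 11.79 and 11.82 against 12.10, 12.04 and 12.12. The groups did not overlap in any strain, with the smallest gap in C57BL/6J. The rise was 0.25 ± 0.04 (1.19-fold; limma adjusted p = 0.00597), and probe set 1427464_s_at, which can match several transcripts, gave 0.27 ± 0.05 (adjusted p = 0.00597); the third, 1447824_x_at, gave 0.06 and was not called.

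Manf, a secreted survival factor that binds Hspa5, read 10.44, 10.42 and 10.62 log2 in AKR/J controls against 10.74 and 10.76. The corresponding values were 10.28, 10.25 and 10.25 against 10.61, 10.48 and 10.32 in C57BL/6J, and 10.18, 10.20 and 10.26 against 10.43, 10.61 and 10.51 in DBA/2J. Again no arrays overlapped, and the rise was 0.26 ± 0.05 (limma adjusted p = 0.00597). Sdf2l1, a cochaperone of the same compartment, varied more between strains: 6.88, 6.86 and 7.17 against 7.71 and 7.97 in AKR/J, 6.82, 6.93 and 6.82 against 7.54, 7.03 and 6.87 in C57BL/6J, and 6.73, 6.71 and 6.83 against 7.30, 7.06 and 6.83 in DBA/2J. Its groups overlapped in C57BL/6J and nearly touched in DBA/2J, and the strains differed by 0.87, 0.29 and 0.31, but the test of that difference between strains gave an adjusted p of 0.861. The mean rise of Sdf2l1 was 0.49 ± 0.10 (adjusted p = 0.0174). Creld2, a stress-induced protein of the compartment, rose by 0.26 ± 0.05 (adjusted p = 0.0174) and Hsp90b1, its Hsp90 form, by 0.22 ± 0.05 (adjusted p = 0.0226).

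Over the whole list of endoplasmic reticulum chaperones and unfolded protein response genes, 24 of 31 were positive (47.5% of all probe sets), and the median was 0.08 log2, with 0.11 in AKR/J, 0.08 in C57BL/6J and 0.07 in DBA/2J. Pdia6, a disulfide isomerase, came next in order of p (0.20 ± 0.05, limma adjusted p = 0.0888). P4ha1 and P4ha2, the catalytic subunits of the prolyl hydroxylases that work on collagen in the same compartment, were outside the list and rose by 0.24 ± 0.05 (adjusted p = 0.0118) and 0.22 ± 0.05 (adjusted p = 0.0444). Tmem33, a membrane protein of this compartment, rose by 0.19 ± 0.04 (adjusted p = 0.0444).

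Cytosolic heat shock proteins and cochaperones were called in 5 of 27 measured members, all higher (0.06% of all probe sets), and 25 of the 27 were positive (47.5% of all) with a median of 0.13 log2. Hsph1, an exchange factor for Hsp70, read 10.40, 10.27 and 10.29 in AKR/J controls against 10.68 and 10.60 on probe set 1423566_a_at. C57BL/6J gave 10.33, 10.23 and 10.36 against 10.53, 10.63 and 10.45, and DBA/2J gave 10.38, 10.35 and 10.29 against 10.64, 10.56 and 10.51. The groups were apart in each strain and the rise was 0.26 ± 0.05 (1.20-fold; limma adjusted p = 0.00597), with 0.19 ± 0.04 (adjusted p = 0.0231) on probe set 1425993_a_at.

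Ahsa1, which activates the ATPase of Hsp90, showed a small and even rise. Its AKR/J values were 10.36, 10.37 and 10.45 log2 against 10.55 and 10.64, its C57BL/6J values 10.34, 10.39 and 10.37 against 10.56, 10.55 and 10.44, and its DBA/2J values 10.40, 10.34 and 10.36 against 10.53, 10.59 and 10.55. The groups did not overlap, and the difference of 0.18 ± 0.03 (1.13-fold; limma adjusted p = 0.00204) ranged over strains only from 0.15 to 0.20. Dnajb5, an Hsp40 cochaperone, rose by 0.21 ± 0.04 (adjusted p = 0.00597) on a probe set that can match several transcripts, again with no overlap in any strain. The small heat shock protein Cryab rose by 0.25 ± 0.04 (adjusted p = 0.00597), with 0.32 in AKR/J, 0.11 in C57BL/6J and 0.32 in DBA/2J.

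The inducible Hsp70 genes Hspa1a and Hspa1b are near-identical copies, so probes of either can read both. Hspa1a rose by 0.43 ± 0.09 log2 (limma adjusted p = 0.0275), with 0.46 in AKR/J, 0.23 in C57BL/6J and 0.61 in DBA/2J. The 3 probe sets named for Hspa1b differed by 0.52 to 0.59 and were not called; the smallest p, on 1427127_x_at, was 0.0597 after adjustment. Hspa1b therefore had a larger mean difference than Hspa1a but also a larger SE, 0.13 on that probe set.

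Glucocorticoid-responsive genes, those that rise when the adrenal stress hormone acts, were called higher in 2 of 24 measured (0.06% of all probe sets), and 23 of the 24 were positive (47.5% of all) with a median of 0.13 log2 (0.05 in AKR/J, 0.23 in C57BL/6J and 0.16 in DBA/2J). Cdkn1a, an inhibitor of the cell cycle, read 7.64, 7.71 and 7.66 in AKR/J controls against 7.95 and 7.95, 7.68, 8.0 and 7.89 against 8.20, 7.98 and 8.67 in C57BL/6J, and 7.80, 7.67 and 7.59 against 8.05, 8.0 and 8.16 in DBA/2J. Its groups overlapped in C57BL/6J alone, where sleep-deprived replicate 3 was the highest of all 17 arrays. The rise of Cdkn1a was 0.36 ± 0.08 (limma adjusted p = 0.0229). The gene's second probe set, 1421679_a_at, differed by 0.33 ± 0.09 and was not called (limma adjusted p = 0.199). Tsc22d3, the leucine zipper protein GILZ, rose by 0.26 ± 0.05 (adjusted p = 0.0229), with 0.10 in AKR/J and 0.34 in both other strains. Zbtb16 (0.26, adjusted p = 0.135) and the corticotropin-releasing hormone gene Crh (0.24 ± 0.07, adjusted p = 0.233), which drives the hormonal stress axis, were not called.

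Dio2, the deiodinase that makes active thyroid hormone in the brain, rose by 0.30 ± 0.06 log2 (limma adjusted p = 0.0174), most in C57BL/6J (0.48) and least in AKR/J (0.18). It was the only gene called of 5 on the thyroid hormone list, beside 0.06% of all probe sets called higher. Nts, the neuropeptide neurotensin, rose by 0.21 ± 0.04 (adjusted p = 0.0192) with no overlap in any strain, and was the only gene called of 30 sleep-wake neuromodulators and neuropeptides. Trim9, a neuronal ubiquitin ligase, rose by 0.16 ± 0.03 (adjusted p = 0.0229) and Dleu2, a long noncoding RNA that hosts microRNAs, by 0.22 ± 0.05 (adjusted p = 0.0229).

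The 8 genes that fell shared no list. Ankrd12, a nuclear protein with ankyrin repeats, read 7.32, 7.28 and 7.31 log2 in AKR/J controls against 7.01 and 6.86, 7.24, 7.24 and 7.26 against 6.77, 7.20 and 7.07 in C57BL/6J, and 7.12, 7.11 and 7.13 against 6.98, 6.63 and 6.98 in DBA/2J. Control arrays of a strain lay close together, and all sleep-deprived arrays were lower and more scattered. The difference was -0.29 ± 0.05 (0.82-fold; limma adjusted p = 0.00597). Zc3h6, a zinc finger protein, differed by -0.33 ± 0.07 (adjusted p = 0.0178), the E3 ubiquitin ligase Marchf7 by -0.22 ± 0.05 (adjusted p = 0.039), the exocyst subunit Exoc2 by -0.20 ± 0.04 (adjusted p = 0.0186), the corepressor Rcor3 by -0.18 ± 0.04 (adjusted p = 0.0174) and Ypel5 by -0.15 ± 0.03 (adjusted p = 0.0229).

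Dbp, a transcription factor driven directly by the circadian clock, was the only clock gene called. It read 9.74, 9.92 and 9.82 log2 in AKR/J controls against 9.61 and 9.63 after sleep deprivation, 9.78, 9.84 and 9.79 against 9.38, 9.49 and 9.44 in C57BL/6J, and 9.72, 9.86 and 9.74 against 9.53, 9.56 and 9.64 in DBA/2J. All sleep-deprived arrays lay below their controls, and the difference was -0.26 ± 0.06 (limma adjusted p = 0.0461) on a probe set that can match several transcripts; it was called with 1 of the 17 ZT18 arrays left out and not with the other 16. The second Dbp probe set, 1418174_at, gave -0.23 (adjusted p = 0.0921). Of 17 core clock genes 0 were called, beside 0.0777% of all probe sets, and the median was -0.02. Per1 differed by 0.12 ± 0.09 (adjusted p = 0.97) and Per2 by 0.11 ± 0.06 (adjusted p = 0.903), both repressors of the clock.

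Besides the core clock, no member was called in 13 lists: cholesterol and fatty acid synthesis, glucose use, the respiratory chain, glutamate receptors, GABA receptors, potassium channels, adenosine, splicing factors, oxidative stress defence, stress axis peptides, cold-inducible RNA-binding proteins, MAP kinase phosphatases and activity-regulated synaptic genes. Homer1 belongs to the last of these and enters it with probe set 1437363_at, which has its highest mean level and differed by -0.08. In all, 16 of 403 measured genes of the 21 pathway lists were called higher and 1 lower, beside 0.06% and 0.0178% of all probe sets.

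**Figure D3:**
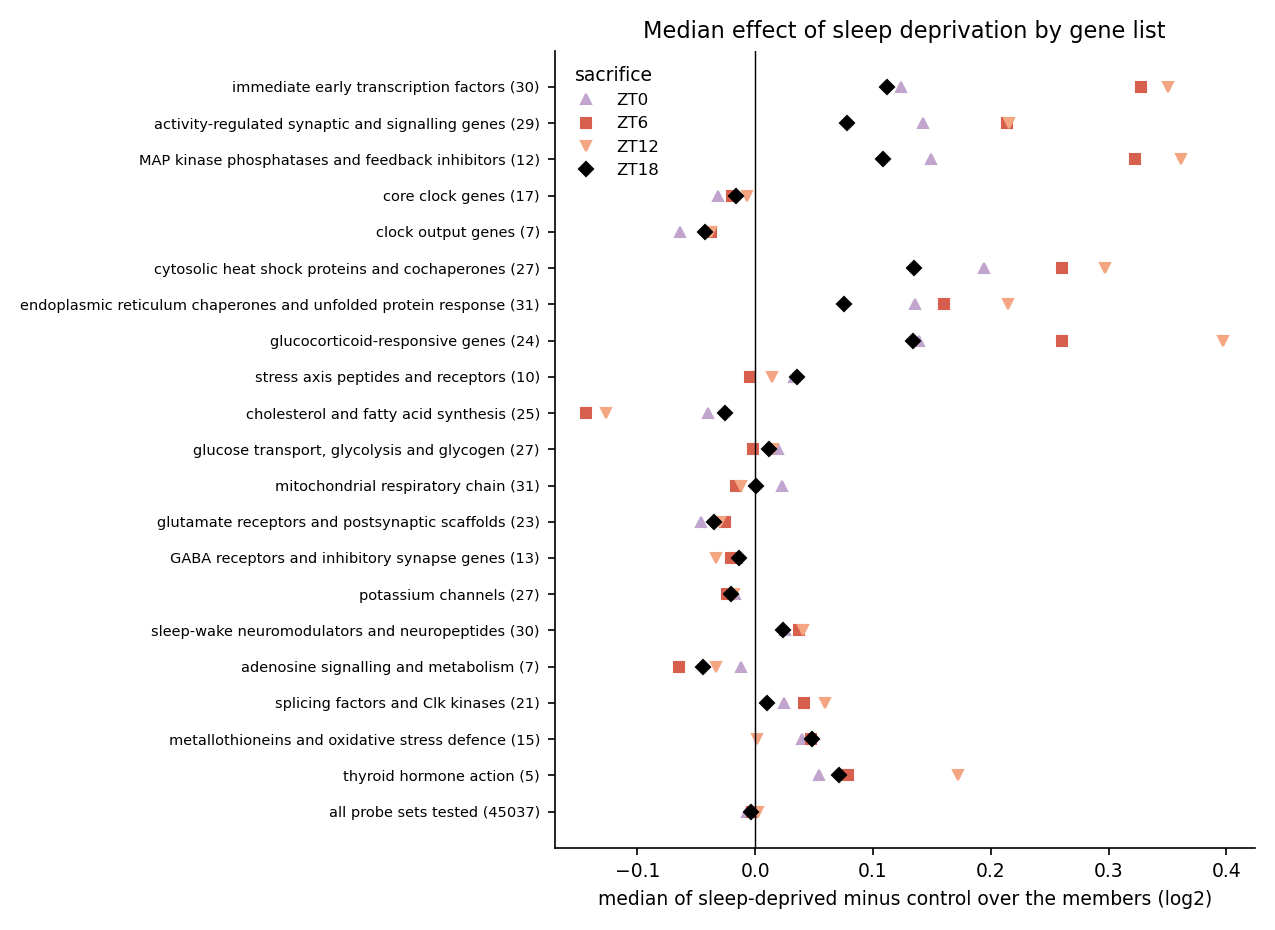
Median difference between sleep-deprived and control mice (log2, horizontal axis) over the measured members of each gene list, whose number stands in parentheses, at the 4 times of sacrifice; the lowest line gives all probe sets. At ZT18 (black diamonds) the medians of the activity, chaperone and glucocorticoid lists lie between 0.08 and 0.13, below their medians at ZT6 and ZT12.

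Within single strains few probe sets passed. In AKR/J 0 were called (0% of 45037; 1545 had an unadjusted limma p under 0.05), with Sdf2l1, Gpatch3 and Homer1 at the smallest p; the smallest adjusted p was 0.555. C57BL/6J gave 1 call (0.00222%), probe set 1451347_at of Ino80e, a subunit of a chromatin remodelling complex. It read 4.82, 5.03 and 4.97 log2 in C57BL/6J controls and 5.65, 5.58 and 5.72 after sleep deprivation. Its difference there was 0.71 ± 0.11 (adjusted p = 0.00199), against -0.05 in AKR/J and 0.08 in DBA/2J. DBA/2J gave 2 calls (0.00444%): Smr3a at 0.39 ± 0.07 and the ion-transport ATPase Atp13a5 at -0.64 ± 0.11, both with an adjusted p of 0.0118. The count in C57BL/6J was 16, 5 and 20 without control replicates 1, 2 and 3, 5 without sleep-deprived replicate 2 and 0 without replicate 3. It was also 0 with only probe sets above the median level and with 1 probe set per gene. Both settings leave probe sets out of the test, so these counts do not show whether the Ino80e probe set was tested there. The count in DBA/2J was 0 without control replicate 2 or 3, and 27, 7 and 8 without sleep-deprived replicates 1, 2 and 3.

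Atp13a5 in DBA/2J read 6.47, 6.62 and 6.54 log2 in controls against 6.15, 5.73 and 5.82, and its groups also stood apart in AKR/J (6.68, 6.80 and 6.74 against 6.55 and 6.65) but not in C57BL/6J (6.48, 6.76 and 6.37 against 6.29, 6.49 and 6.22). Smr3a, on a probe set that can match several transcripts and at a mean level of 3.59 near the bottom of the scale, rose in the mean of 3 strains by 0.20 ± 0.04 (limma adjusted p = 0.0229). It was the sole called probe set with strains of opposite sign, at 0.22 in AKR/J, -0.01 in C57BL/6J and 0.39 in DBA/2J. Among the 35 it was also the sole probe set not called at ZT6, where it differed by -0.02.

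The F test for a response that differed between strains at ZT18 called 0 of 45037 probe sets with limma (0%; 2571 had an unadjusted p under 0.05, and the smallest adjusted p was 0.498). The smallest p belonged to 5430421F17Rik, Ino80e and Cpeb4, the last a regulator of translation at synapses, which differed by -0.12 in AKR/J, 0.35 in C57BL/6J and -0.45 in DBA/2J (adjusted p = 0.51). With array weights 5 probe sets were called, and 4 without DBA/2J sleep-deprived replicate 1.

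The response at ZT18 was weaker than at the other times for a set of named genes, and this difference was tested itself. The effect of sleep deprivation at ZT18 minus the mean of its effects at ZT0, ZT6 and ZT12 was called by limma for 290 probe sets, 0.644% of those tested: 216 with a lower value (0.48%) and 74 with a higher value (0.164%) at ZT18. Without AKR/J sleep-deprived ZT18 replicate 2 the count was 136. At the other times 770 probe sets (1.71%) were called at ZT0, 4693 (10.4%; 5.13% higher and 5.29% lower) at ZT6 and 4391 (9.75%) at ZT12. Homer1 had the largest such difference: its effect was 0.48 at ZT18 against 1.12 at ZT0, 2.11 at ZT6 and 2.57 at ZT12, a difference of -1.45 ± 0.08 (limma adjusted p = 7.84e-21).

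Next in order, with the probe set of smallest p in this comparison taken for a gene and the other 2 of Hspa1b beside it, were Hspa1b (-0.97 ± 0.17 on 1427126_at, adjusted p = 0.000498; -0.89 ± 0.15 on 1427127_x_at, adjusted p = 0.000189; -0.75 ± 0.16 on 1452318_a_at, adjusted p = 0.00489), Arc (-0.81 ± 0.13, adjusted p = 3.92e-05), Fos (-0.78 ± 0.11, adjusted p = 9.38e-06), the activity-induced transcription factor Npas4 (-0.77 ± 0.10, adjusted p = 9.75e-07), the zinc finger protein Zmym1 (-0.67 ± 0.09, adjusted p = 1.3e-06), Egr2 on probe set 1427683_at (-0.65 ± 0.13, adjusted p = 0.00207) and Fosl2 (-0.65 ± 0.09, adjusted p = 1.19e-06), all from limma. For Arc the effect was 0.23 at ZT0, 1.65 at ZT6 and 1.58 at ZT12. The effect of Arc at ZT0 was thus no larger than at ZT18, and its difference came from ZT6 and ZT12.

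The 8 genes named for the highest value at ZT18 had negative effects at ZT0, ZT6 and ZT12 and were not called at ZT18. Cirbp, an RNA-binding protein induced by cooling, had effects of -0.50 at ZT0, -1.28 at ZT6 and -0.84 at ZT12 against -0.15 ± 0.07 at ZT18 (not called, limma adjusted p = 0.857), a difference of 0.73 ± 0.08 (adjusted p = 2.34e-08). On single arrays at ZT18 Cirbp read 7.43, 7.25 and 7.21 in AKR/J controls against 7.20 and 7.24, 7.70, 7.42 and 7.42 against 7.36, 7.33 and 7.43 in C57BL/6J, and 7.27, 7.44 and 7.48 against 7.11, 7.25 and 7.17 in DBA/2J. The groups overlapped in AKR/J and C57BL/6J. Rprd2, which binds RNA polymerase II, followed with 0.62 ± 0.09 (adjusted p = 1.21e-05), then the antiproliferative gene Btg1 with 0.53 ± 0.13 (adjusted p = 0.0207) and the oligodendrocyte gene Opalin with 0.45 ± 0.07 (adjusted p = 1.7e-05). Opalin itself differed by -0.25 ± 0.06 at ZT18 and was not called (adjusted p = 0.0761).

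Of the 35 differences called at ZT18, 33 were smaller in size there than at ZT6, 34 smaller than at ZT12 and 25 smaller than at ZT0. Values of 3 of these genes, chosen after they were seen, are given in full. Ankrd12 had effects of -0.12 at ZT0, -0.23 at ZT6 and -0.29 at ZT12 beside -0.29 at ZT18, and Egr2 on probe set 1427682_a_at had 0.52, 0.80 and 0.79 beside 0.60. Ahsa1 stood at 0.23, 0.30 and 0.32 beside 0.18. The differences of these 3 between ZT18 and the other times were -0.07, -0.10 and -0.10 and were not called (limma adjusted p = 0.824, 0.923 and 0.165), which does not show that they were equal.

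The levels behind the difference were compared between ZT18 and ZT6 within each condition. Controls at ZT18 and at ZT6 differed in 4340 probe sets by limma (9.64%; 2409 or 5.35% higher and 1931 or 4.29% lower at ZT18), and sleep-deprived mice at the same times in 324 (0.719%; 185 or 0.411% higher and 139 or 0.309% lower). The effect itself differed between ZT18 and ZT6 in 461 probe sets (1.02%), 303 lower (0.673%) and 158 higher (0.351%) at ZT18; that difference is by arithmetic the change in sleep-deprived mice minus the change in controls. Without AKR/J sleep-deprived ZT18 replicate 2 the last count was 280. The count in sleep-deprived mice fell to 137 and 151 without AKR/J ZT18 replicates 1 and 2, to 215 without C57BL/6J ZT18 replicate 2 and to 211 without DBA/2J ZT18 replicate 3. Among ZT6 arrays it was 197 without AKR/J replicate 3, 190, 718 and 171 without C57BL/6J replicates 1, 2 and 3, and 193 without DBA/2J replicate 2.

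Homer1 stood 1.65 log2 higher at ZT18 than at ZT6 in controls (limma adjusted p = 3.53e-27) and 0.01 higher in sleep-deprived mice (adjusted p = 0.968). Arc differed by 1.60 in controls and 0.29 in sleep-deprived mice, Fos by 1.37 and 0.19, and Hspa5 by 0.85 and 0.18; in sleep-deprived mice that of Hspa5 on 1416064_a_at was called (adjusted p = 0.025), while 1427464_s_at, at 0.17, was not (adjusted p = 0.0846), and those of Arc (adjusted p = 0.249) and Fos (adjusted p = 0.435) were not. Cirbp went the other way, with -0.95 in controls (adjusted p = 2.03e-16) and 0.18 in sleep-deprived mice (adjusted p = 0.288). For these genes the mean levels of controls thus lay nearer to those of sleep-deprived mice at ZT18 than at ZT6. Homer1 and Hspa5 were still called between the conditions at ZT18. Homer1 was at 9.60 in ZT18 controls, 10.08 in ZT18 sleep-deprived mice and 10.07 in ZT6 sleep-deprived mice, but 7.96 in ZT6 controls. Hspa1b, on 1427127_x_at, was also called higher at ZT18 than at ZT6 in sleep-deprived mice, by 0.70 (adjusted p = 0.00143), beside 1.68 in controls.

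**Figure D4:**
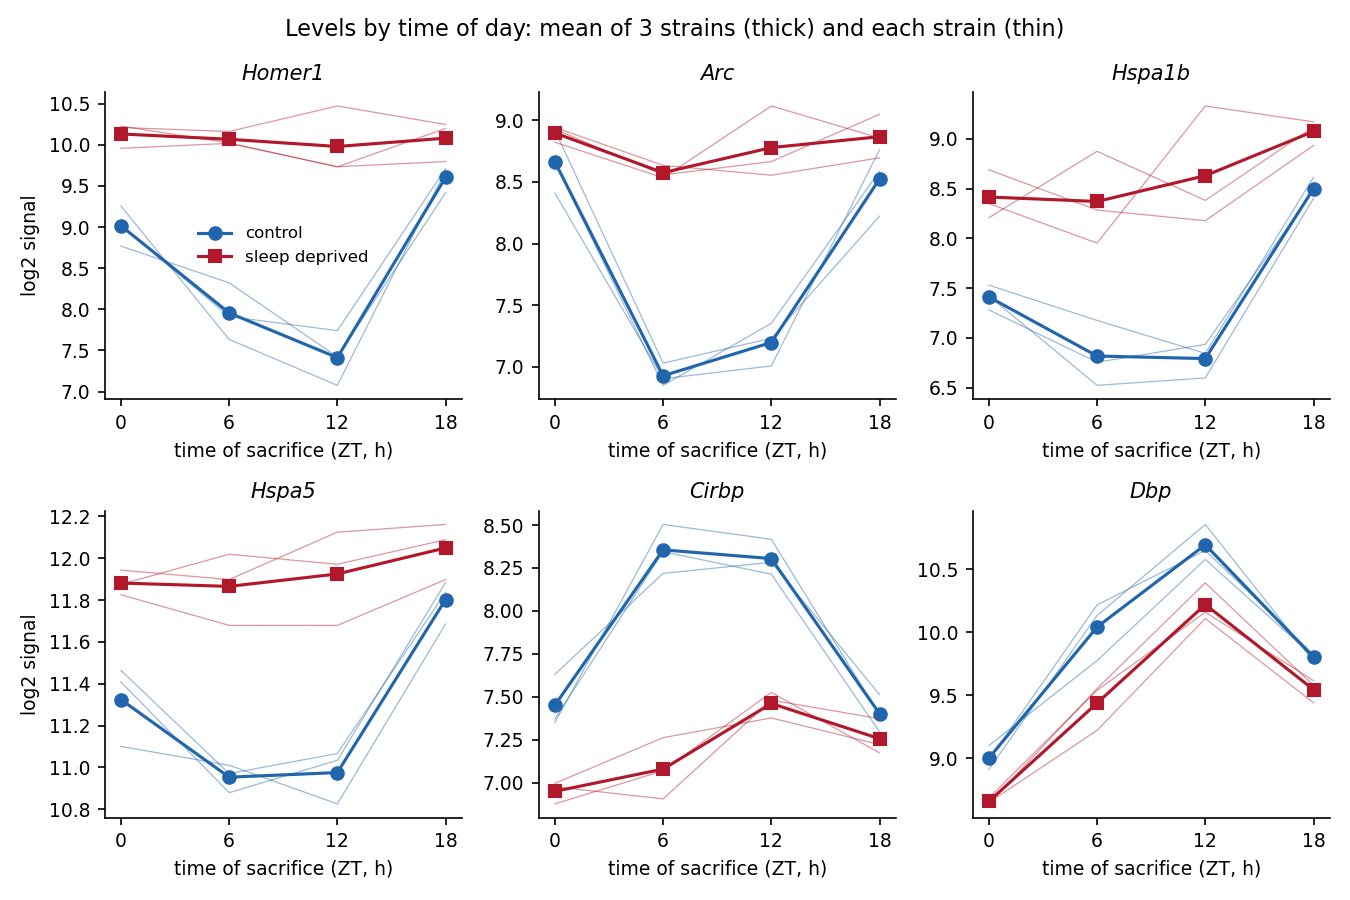
Log2 signal (vertical axis) by time of sacrifice (ZT in hours, horizontal axis) for 6 genes in controls (blue circles) and sleep-deprived mice (red squares); thick lines join the means of 3 strains and thin lines each strain. The control line lies closer to the sleep-deprived line at ZT18 than at ZT6 and ZT12 for Homer1, Arc, Hspa5 and Cirbp. For Dbp the sleep-deprived line lies below the control line at each time.

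Small differences at ZT18 mostly ran in the direction seen at the other times; the effects share no array, though the fit took its spread from all arrays. Of 2119 probe sets (4.71%) called higher after sleep deprivation at ZT12, 78.6% were positive at ZT18, with a median of 0.04 log2 there against 0.20 at ZT12. Of 2272 (5.04%) called lower at ZT12, 84.2% were negative at ZT18, with a median of -0.05 against -0.20. Over all probe sets 47.5% were positive at ZT18. For the 566 probe sets (1.26%) called higher at ZT0, the end of the dark phase, 92.4% were positive at ZT18 and the median was 0.07 against 0.20, and of the 204 (0.453%) called lower 91.7% were negative. By strain, the median at ZT18 of the set chosen as higher at ZT12 was 0.03 in AKR/J, 0.08 in C57BL/6J and 0.02 in DBA/2J. Probe sets within such a group are not independent of each other, and no test was made of these shares.

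The same set chosen as higher at ZT12 had a median of 0.16 log2 for ZT18 minus ZT6 in controls and 0.03 in sleep-deprived mice. The set chosen as lower at ZT12 had -0.13 in controls and -0.02 in sleep-deprived mice. The ZT12 effects that chose these sets use no array of ZT18 or ZT6, but the spread behind their p-values was estimated over all 71 arrays.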

How the data were processed

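RMA was the authors' processing method, per the submitters' processing notes, and the deposited table holds its log2 signal for each probe set; no version or settings of RMA are given in the sources used. RMA brings all arrays to the same distribution, so a shift common to most genes would not be seen. No counts or detection calls underlie the values, and precision depends on the number of arrays and on how much each probe set varies between pools.

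Of 45101 probe sets, 64 controls were left out and 45037 tested. The platform annotation gave 34945 a single symbol, 932 several and 9160 none here; symbols were updated through Entrez IDs in a RefSeq list of assembly GRCm38.p6 for 34741. Promoter sequences came from RefSeq on GRCm38.p6.

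With limma 3.58.1 (R 4.3.3), 24 group means were fitted over the 71 arrays of the series (47 residual degrees of freedom; files read with data.table, version 1.17.8). Effects at ZT18 are the equally weighted mean of the differences within 3 strains, which takes strain as a block. Tests were two-sided and a probe set was called at a Benjamini-Hochberg adjusted p under 0.05 over all probe sets. An SE is that of the fit. The fit was tested on simulated data. Figures were drawn with matplotlib.

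The comparison, the gene lists and the genes named were chosen with earlier results of these data known. The naming rule took the 12 largest called rises and falls, the 8 largest differences from other times per direction, the 4 largest from ZT6, the calls of each strain or else the 3 smallest p, 4 genes per list, and a set of sleep-loss genes with every Homer1 probe set. The remaining called genes and the single probe sets of Hspa5, Hspa1b, Bdnf, Per2, Dbp, Cdkn1a and Nptx2 are named beside it. The 21 pathway and 14 marker lists held 549 genes, 506 of them measured. The motif search and the reading at ZT18 of sets called at other times were added after the data were seen.

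Alternatives were quantile normalization, median centring, array weights, a filter at the median level, a replicate block, robust eBayes with a trend, 1 probe set per gene, only the ZT18 arrays, an additive strain block, leaving out arrays that stood over 5 MAD (or, added later, over 4 MAD below) on spike-in controls, and leaving out each array. None of those spike-in arrays was at ZT18.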

Additional observations from a re-analysis of the deposited data

Results flagged for a closer look

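For 48 probe sets among those named, the effect of sleep deprivation at ZT18 differed from the mean of its effects at ZT0, ZT6 and ZT12. The limma test of that difference was used (adjusted p under 0.05, mean of 3 strains). Over all 45037 probe sets tested it called 290, or 0.644%. Up to 8 genes per direction were named because this same test called them. The number 48 is thus partly built in and is no separate support for a difference. Values are the ZT18 effect minus the mean of the other 3 effects, in log2 units, and several probe sets of a gene are counted apart. The cause of these differences was not tested.

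Among activity-induced genes and their feedback inhibitors the values were Homer1 (1436387_at) -1.45, Arc -0.811, Fos -0.777, Npas4 -0.771, Egr2 (1427683_at) -0.655, Fosl2 -0.646, Egr3 -0.563, Homer1 (1425671_at) -0.556, Ptgs2 -0.5, Bdnf (1422168_a_at) -0.448, Dusp4 -0.396, Bdnf (1422169_a_at) -0.373, Nr4a3 -0.371, Homer1 (1421768_a_at) -0.327, Dusp6 -0.313, Homer1 (1439662_at) -0.307 and Homer1 (1437363_at) -0.3. Among genes of the endoplasmic reticulum they were Hspa5 (1427464_s_at) -0.574, Hspa5 (1416064_a_at) -0.559, Creld2 -0.504, Manf -0.477 and P4ha1 -0.387. Heat shock genes gave Hspa1b (1427126_at) -0.969, Hspa1b (1427127_x_at) -0.89, Hspa1b (1452318_a_at) -0.752, Hsph1 (1425993_a_at) -0.235 and Dnajb5 -0.186. The other negative values were Zmym1 -0.673, Per2 (1417602_at) -0.427, Dio2 -0.386, Crh -0.382, Trim9 -0.346, Tra2a -0.311, Per2 (1457350_at) -0.296, Dleu2 -0.295 and Vip -0.166.

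Positive values were Cirbp 0.728, Rprd2 0.624, Btg1 0.533, Opalin 0.454, 4930570G19Rik 0.454, Spaca6 0.414, Rwdd3 0.391, Arsg 0.368, Dbp (1418174_at) 0.248, Slco1a4 0.244, Smr3a 0.202 and Hnrnpdl 0.191. Of these, Smr3a alone was called at ZT18 itself, beside effects of -0.03 at ZT0, -0.02 at ZT6 and 0.03 at ZT12.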

How the results depend on the processing

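Under quantile normalization, median centring, trend and robust eBayes, 1 probe set per gene and both spike-in exclusions, the count at ZT18 stayed within 32 to 51 beside 35, and all 35 differences kept their sign in each setting that tested them. It was 57 with only probe sets above the median level, 88 with array weights, 10 with only the ZT18 arrays (11 residual degrees of freedom, 6 of the 35 kept, 3178 unadjusted) and 16 with the additive strain block (13 degrees of freedom); leaving out an array gave 9 to 48. A sleep-deprived AKR/J array left alone was assumed to vary like the other groups. Homer1 probe sets near 0 changed sign: 1421768_a_at ranged from -0.00195 (without AKR/J sleep-deprived replicate 1) to 0.0861, and 1425710_a_at from -0.00545 (without DBA/2J control replicate 3) to 0.0482.

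Array weights gave 1 call in AKR/J, 9 in C57BL/6J, 83 in DBA/2J, 5 for strain by sleep deprivation, 751 for ZT18 minus the other times, 1570 for ZT18 minus ZT6 and 2095 for sleep-deprived mice at ZT18 minus ZT6. The level filter gave 0 in C57BL/6J, 1 in DBA/2J and 581 in sleep-deprived mice. C57BL/6J also gave 0 with 1 probe set per gene and with only the ZT18 arrays, and DBA/2J gave 1 with quantile normalization and 0 with only the ZT18 arrays. With 1 probe set per gene, controls gave 2532. Without the 4 arrays over 5 MAD on spike-in controls, ZT18 minus ZT6 gave 784 and sleep-deprived mice 743; without those over 4 MAD below, a limit chosen after seeing the data, sleep-deprived mice gave 123. The causes were not tested. Leaving out 1 array gave 0 to 0 calls in AKR/J, 0 to 20 in C57BL/6J, 0 to 27 in DBA/2J, 0 to 4 for strain by sleep deprivation, 136 to 338 for ZT18 minus the other times, 280 to 556 for ZT18 minus ZT6, 3734 to 4213 in controls and 137 to 718 in sleep-deprived mice.

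Same-numbered arrays of a strain did not deviate together (correlations -0.05 to 0.04, 0 of 8 over 0.1), so no pairing of pools by number was seen. Whether pools were handled in numbered sets cannot be told from these values. With the replicate block the count at ZT18 was 40.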
